A study of Mus musculus with 2 samples.

Results

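In the nuclear RNA of lipid A-treated mouse macrophages, 60 genes had at least 50% of their transcript abundance in transcripts annotated as targets of nonsense-mediated decay (NMD). They were chosen by their values: a gene needed 100 or more estimated counts in both libraries, and its NMD transcripts had to hold 50% or more of the gene's summed TPM (an abundance per transcript length, scaled to the same total in each library) in the alignment-based transcript table of each library. Serine/arginine-rich splicing factor (Srsf) and CLK kinase genes were to be left out, and 0 of them met the other conditions. Of 55536 annotated genes, 8640 reached the count minimum in both libraries and 2546 of those had an annotated NMD transcript, so the 60 members were 2.36% of the genes that could qualify. The remaining 2486 are called the other genes with NMD transcripts below.

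The libraries were total RNA, depleted of ribosomal RNA, from the nucleoplasmic fraction (listed as nuclear or nucleus in other label fields) of primary macrophages grown from bone marrow, of the strain C57BL/6J. These phagocytes were given 100 ng/ml lipid A (the endotoxin component that activates Toll-like receptor 4) for 12 h, kept without it for 12 h, and given 100 ng/ml again for 50 min. The series is 1 group of 2 libraries, labelled biological replicates 1 and 2, made from 500 ng and 1 µg of RNA, so that replicate and RNA input cannot be told apart; age and sex were not collected, and both carry the same donor entry with no separate animals or cultures named. No unstimulated, cytoplasmic or whole-cell library was used here, so neither a response to lipid A nor decay was measured.

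NMD is the pathway by which cells degrade messenger RNAs whose stop codon lies well upstream of a later exon junction. The exon junction complex left behind at such a junction after splicing is met by the UPF proteins when a ribosome stops early, the SMG1 kinase phosphorylates UPF1, and the RNA is cut or decapped and degraded. Because this needs translation, it is known as a mainly cytoplasmic process, and many RNA-binding proteins limit their own level by splicing a poison exon or intron into their transcripts.

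How the open reading frame is cut short is easiest to see in the sequences. For 9 members the stretch around the point of divergence is printed here from the leading NMD transcript (the one with the highest mean TPM) and from a protein-coding transcript of the same gene, to show 3 ways in which the early stop arises. Sequences are from the GENCODE M21 transcripts on mm10, written 5′ to 3′ in the direction of the gene. Lower case marks bases that both reading frames share, at most the last 30 before they part. Capitals run from the first differing base through the stop codon of the NMD transcript, and over the same number of bases in the coding transcript. In Ddx5, Khnyn, Fbxl4, Oas1g and Ndufa3 the NMD transcript read past a 5′ splice site that the coding transcript uses. The Ddx5 stop lies at chr11:106783954-106783956 on the minus strand, in an intron of Ddx5-201 that Ddx5-208 keeps whole. No intron was kept whole in Khnyn, Fbxl4, Oas1g or Ndufa3. Only 5 bases separate the Ddx5 stop, itself included, from the last shared base.
Ddx5-208 (NMD): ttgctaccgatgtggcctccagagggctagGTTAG
Ddx5-201 (coding): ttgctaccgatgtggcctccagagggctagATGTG
The Khnyn stop lies at chr14:55894101-55894103 on the plus strand.
Khnyn-203 (NMD): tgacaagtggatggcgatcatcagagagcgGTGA
Khnyn-201 (coding): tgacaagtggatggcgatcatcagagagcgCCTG
The Fbxl4 stop lies at chr4:22422798-22422800 on the plus strand.
Fbxl4-205 (NMD): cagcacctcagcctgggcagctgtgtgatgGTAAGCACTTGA
Fbxl4-201 (coding): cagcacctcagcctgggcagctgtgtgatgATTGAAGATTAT
The Oas1g stop lies at chr5:120881837-120881839 on the minus strand.
Oas1g-203 (NMD): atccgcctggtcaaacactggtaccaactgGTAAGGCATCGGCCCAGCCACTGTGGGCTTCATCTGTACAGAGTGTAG
Oas1g-201 (coding): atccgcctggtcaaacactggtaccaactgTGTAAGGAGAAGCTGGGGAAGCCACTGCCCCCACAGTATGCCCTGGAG
Ndufa3 adds 10 bases after its first 10 coding bases. The first added base is the same as the next coding base, so the printed sequences part after 11. The next coding exon is then read in another frame to a stop at chr7:3619449-3619451 on the plus strand.
Ndufa3-204 (NMD): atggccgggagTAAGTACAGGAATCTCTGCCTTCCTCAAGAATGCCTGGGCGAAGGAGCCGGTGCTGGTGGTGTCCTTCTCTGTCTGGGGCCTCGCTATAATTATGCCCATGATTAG
Ndufa3-201 (coding): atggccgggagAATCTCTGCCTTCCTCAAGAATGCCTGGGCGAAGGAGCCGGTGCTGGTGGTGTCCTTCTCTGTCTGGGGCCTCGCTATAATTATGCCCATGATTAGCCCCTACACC
Ctsh and Rnf114 skipped an exon of the coding transcript, and a downstream coding exon was read in another frame to stops at chr9:90062723-90062725 and chr2:167510904-167510906, both on the plus strand.
Ctsh-202 (NMD): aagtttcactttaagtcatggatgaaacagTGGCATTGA
Ctsh-201 (coding): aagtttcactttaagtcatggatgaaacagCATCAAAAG
Rnf114-203 (NMD): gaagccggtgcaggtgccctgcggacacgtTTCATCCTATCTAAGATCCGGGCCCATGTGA
Rnf114-201 (coding): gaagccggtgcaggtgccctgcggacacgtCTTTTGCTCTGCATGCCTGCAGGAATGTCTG
Il4ra and Ostf1 included an extra exon that itself holds the stop, at chr7:125571951-125571953 on the plus strand and chr19:18598954-18598956 on the minus strand.
Il4ra-205 (NMD): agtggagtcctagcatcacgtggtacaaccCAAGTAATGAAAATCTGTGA
Il4ra-201 (coding): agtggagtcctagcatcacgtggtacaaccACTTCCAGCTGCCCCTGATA
Ostf1-205 (NMD): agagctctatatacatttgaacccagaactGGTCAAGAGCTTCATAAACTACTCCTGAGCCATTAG
Ostf1-204 (coding): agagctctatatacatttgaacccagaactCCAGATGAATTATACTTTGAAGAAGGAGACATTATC

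Over all 60 members, the leading NMD transcript stopped inside sequence that is also exon in a coding transcript in 31, inside added sequence in 16, and at the same stop codon as a coding transcript in 6; the remaining 7 had no coding transcript. A downstream junction follows from the annotation's definition of an NMD transcript and is not a finding here. Of the 52 members with a complete coding transcript to compare with, 19 skipped an exon of it (36.5%, against 33.8% of the other genes with NMD transcripts), 14 added an exon (26.9% against 31.3%) and 11 read past a 5′ splice site (21.2% against 19.4%). A whole intron of the coding transcript was kept in 2 of the 52 (3.85% against 4.47%). Here 1 transcript may count under several. These are descriptions without a test, and the shares in the 2 sets lay close to each other. The median open reading frame of the leading NMD transcript was 200.5 codons over all 60 members, readthrough loci included, and 103 in the other genes. Over the genes with a complete coding transcript only, it was a median of 43.6% and 23.6% of the complete coding frame. The annotation gives no start codon for 4 of the 60 members' transcripts (6.67%) but for 744 of the other 2486 (29.9%), and such models are incomplete. Among transcripts with an annotated start, the medians were 175 and 108 codons, and 45.2% and 28.1% where there was a complete coding frame. In the 6 members with a shared stop, namely Hnrnpa1, Hnrnpd, Cdc26, Pet100, Primpol and Gm38394, the stop codon is one that a coding transcript also uses, and junctions lie beyond it. The map of leading NMD transcripts shows how differently the highest members are built.

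**Figure D1:**
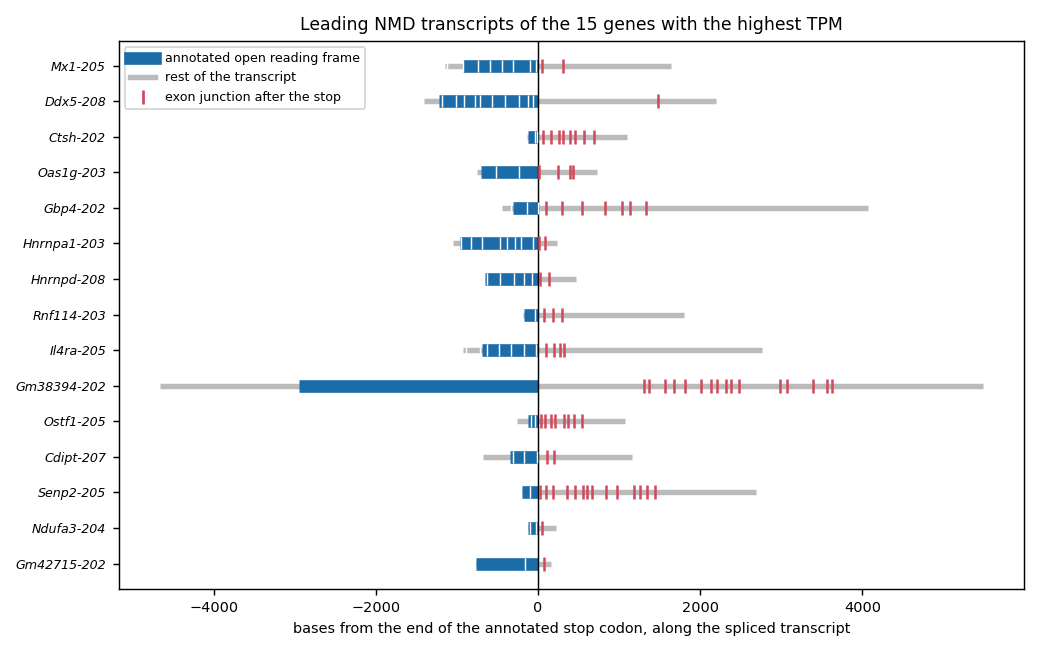
The leading NMD transcript of each of the 15 members with the highest gene-level TPM is drawn along its spliced bases, with 0 at the end of its stop codon, the annotated open reading frame as a thick bar, the rest of the transcript as a thin bar, white ticks for junctions within or before the frame and red ticks for junctions after the stop. Ddx5-208 has 1 junction after its stop, 1485 bases away, whereas Ctsh-202 stops after 41 codons with 8 junctions to follow.

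Members had a median of 5 annotated transcripts and the other genes with NMD transcripts 8, and of these 2 and 1 were NMD transcripts. Both numbers bear on the share that chose the members, so these differences are partly built in. The leading NMD transcript had a median length of 3099 bases in members and 1388 in the others, or 3217 and 1824 among those with an annotated start. The leading coding transcript was of like length, at 3154 and 3121 bases. Gene-level abundance overlapped widely, with a median of 6.41 TPM (range 1.19 to 406) in members and 8.30 TPM in the others. The leading NMD transcript held no base absent from all coding transcripts of its gene in 20 of 53 members (37.7%, against 39.7% of the others), so that no base by itself marks the NMD transcript in those genes. At the other end, 12 of the 53 members (22.6%, against 5.03%) had 1000 or more bases absent from all coding transcripts of the gene. Such bases can lie in exons of other genes, as in Gm45140, where 95.3% of the transcript does. They can also lie beyond the outer ends of the coding transcripts, as all 3507 did in Cdc26 and all 3899 in Chmp4c. In Ddx5 and Fbxl4 all of them, 1265 and 1139, lay within those ends. Bases beyond the ends do not mark the splicing that gives the early stop.

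The NMD share itself, which chose the members, had a median of 69.6% in replicate 1 and 62.7% in replicate 2, against 3.62% and 3.81% in the other genes. Taken as a share of estimated counts in the same table, the medians were 69.5% and 63.1%, and 46 members stood at 50% or more in both libraries. Of the 53 members with a coding transcript, the leading NMD transcript was above the leading coding one in both libraries in 47, and in 31 the authors' deposited TPM intervals of the 2 transcripts lay apart in both. These TPM values are those that chose the members, so both counts are partly built in and only describe them. The share was lower in replicate 2 in 33 members, higher in 18 and equal in 9, with a median difference of -2.3 points. The other genes split into 964 lower and 969 higher, with the rest equal. Because these shares chose the members, no shift between libraries is read from this contrast. The replicate 2 share fell short of the replicate 1 value by 10 points or more in 12 members and exceeded it by as much in 4. At the threshold, the members just inside were Gm38394 (50% and 50% in replicates 1 and 2), Nfam1 (50.15% and 57.5%), Il4ra (50.4% and 56.0%), Mmaa (53.0% and 50.8%) and Styx (59.8% and 50.9%). The genes just outside were Stard9 (54.1% and 49.95%), Dgkz (50.2% and 49.9%), Nkiras1 (75.4% and 49.6%), Cbx1 (49.2% and 50.8%) and Cd300c2 (59.9% and 49.1%), and the smaller of the 2 shares lay between 49.15% and 50.93% in all 10.

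The index-based table, made by the authors from the same reads through a transcript index, gave lower shares, with medians of 57.9% and 56.2%. There the share was lower in replicate 2 in 32 members, higher in 21 and equal in 7, with a median difference of -0.006 points. In it 31 of the 60 members held 50% or more in both libraries. Of these, 8 were readthrough loci, whose transcripts join exons of neighbouring genes. The readthrough locus Gm38394, which rounds to 50% in both libraries there, is not among the 31. Some such loci have only NMD transcripts, so that their share is 100% in any table. Outside the readthrough loci, 23 of 50 members held 50% or more in both libraries. Of all 60 members, 15 were under 50% in both, and 4 were under 25% in both. Tnfrsf8 (the receptor CD30) was the most extreme, with 71.4% and 60.4% in the alignment-based table and 0% in both libraries of the index-based one. Xrcc3 stood at 81.3% and 58.1% against 21.1% in both, Zmym5 at 76.2% and 65.8% against 21.4% and 21.8%, and Mill2 at 54.8% and 62.0% against 24.7% in both. For these 4 genes the assignment to NMD transcripts rests on the alignment-based table. The others at the low end included Pet100, at 30.3% and 26.7%. At the high end, Fbxl4 and 7 readthrough loci stood at 100% in both libraries of the index-based table.

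**Figure D2:**
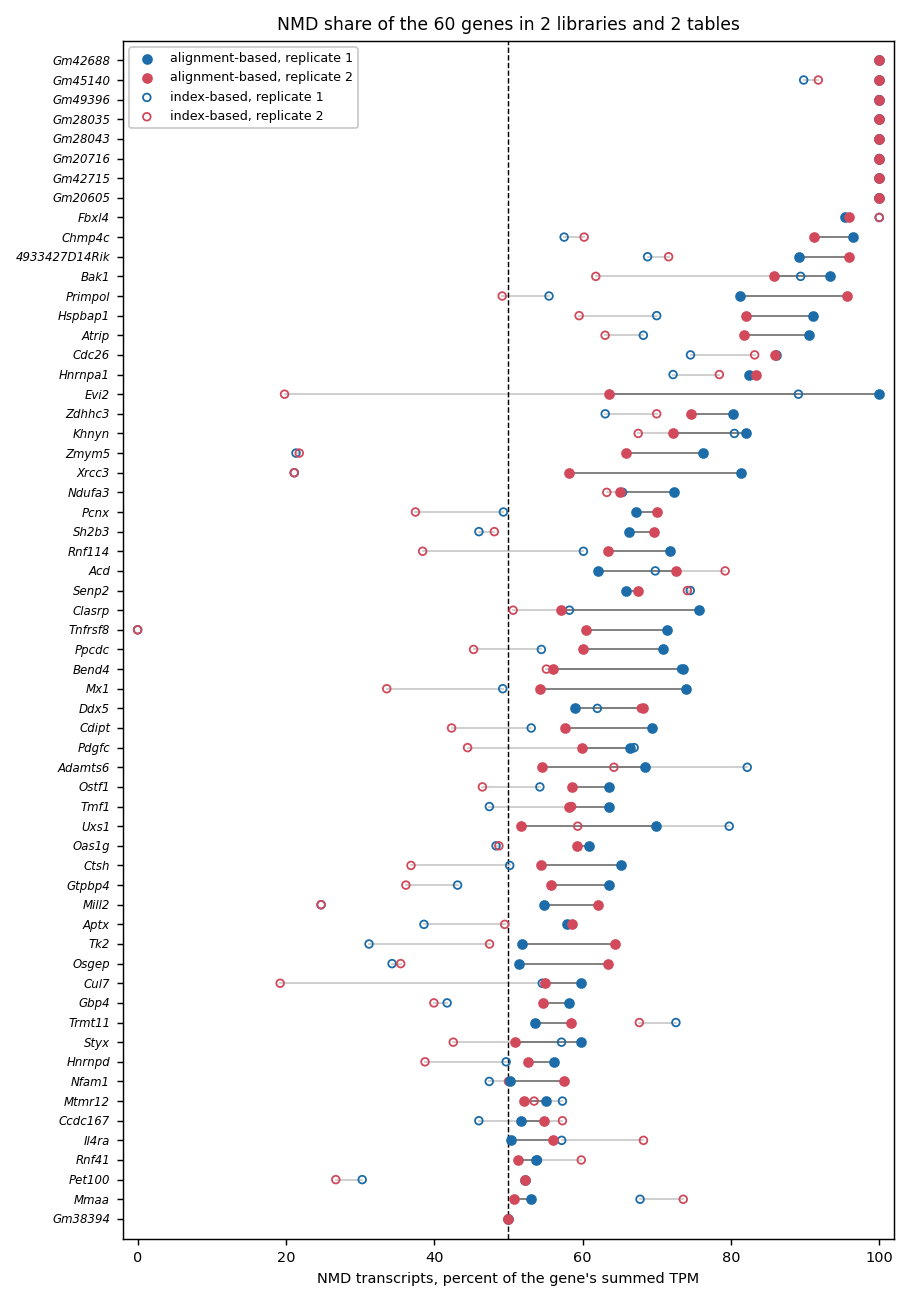
Each row is 1 of the 60 members, ordered by mean share, and the x axis gives the percent of the gene's summed TPM held by NMD transcripts in replicate 1 (blue) and replicate 2 (red), filled for the alignment-based table and open for the index-based one, with the 50% threshold dashed. Filled points lie at or right of the line because they chose the members, whereas the open points of 15 members lie left of it in both libraries.

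Members with antiviral and interferon-linked roles included the most abundant gene. Mx1, an interferon-induced GTPase that restricts influenza viruses and of which C57BL/6 mice are known to carry a defective allele, lies at chr16:97447035-97462907. The sum of its NMD transcripts was 196 TPM in replicate 1 and 297 in replicate 2, and that of its coding transcripts 41.6 and 137. Both sums were higher in replicate 2, and the NMD share was 74.0% in replicate 1 and 54.2% in replicate 2. The index-based table put it at 49.2% and 33.6%, under the threshold in both. Oas1g, of the oligoadenylate synthetase family that senses double-stranded RNA, had 40.6 and 66.1 TPM in its NMD transcript against 9.36 and 11.7 TPM in its coding transcript, and its share was almost the same in both libraries (60.8% and 59.3%). Its index-based share was 48.3% and 48.7%, and a further 25.2% and 30.3% of its alignment-based TPM was annotated as retained intron. Gbp4, an interferon-inducible guanylate-binding GTPase, had 29.5 and 37.7 TPM of NMD transcript against 17.1 and 22.8 TPM coding. Its TPM share (58.2% and 54.7%) was lower than its count share (81.5% and 79.6%). Its NMD transcript has 4509 bases and its leading coding transcript 709. Khnyn, an endonuclease-like cofactor of the antiviral protein ZAP, had 8.20 and 8.74 TPM of NMD transcript against 0.44 and 1.37 TPM coding. It kept 80.5% and 67.5% in the index-based table. Of these 4 genes, only Khnyn stood at 50% or more in both libraries of the index-based table.

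Among RNA-binding proteins, Ddx5, Hnrnpa1 and Clasrp stood at 50% or more in both libraries of both tables and Hnrnpd did not. Ddx5, a DEAD-box RNA helicase at chr11:106780355-106789185, had 169 and 221 TPM of NMD transcripts against 89.1 and 73.9 TPM coding. The share was 58.9% and 68.1% in the alignment-based table and 62.0% and 67.9% in the index-based one. Its transcript Ddx5-208, shown above, carries 1265 bases absent from every coding transcript, and 4.68% of its length coincides with the small RNA genes Gm25994 and Mir3064 on the same strand. Hnrnpa1, an abundant nuclear splicing regulator, had 31.6 and 27.6 TPM of NMD transcripts against 6.72 and 5.51 TPM coding. The leading one, Hnrnpa1-203, ends the full frame of 320 codons at chr15:103244012-103244014, the stop of the coding transcript, with 2 junctions after it. Hnrnpd, which binds AU-rich elements of short-lived messenger RNAs, had 20.7 and 15.2 TPM of NMD transcripts against 14.4 and 12.1 TPM coding. Its share was 56.1% and 52.7% in the alignment-based table, 49.7% and 38.8% in the index-based one and 43.8% and 43.2% by counts. Clasrp, an SR-like protein that binds a CLK kinase, had 5.95 and 6.90 TPM of NMD against 0.58 and 0.29 TPM coding. Its NMD share was 75.7% in replicate 1 and 57.1% in replicate 2, and retained-intron transcripts held 16.9% and 40.5% of its TPM.

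**Figure D3:**
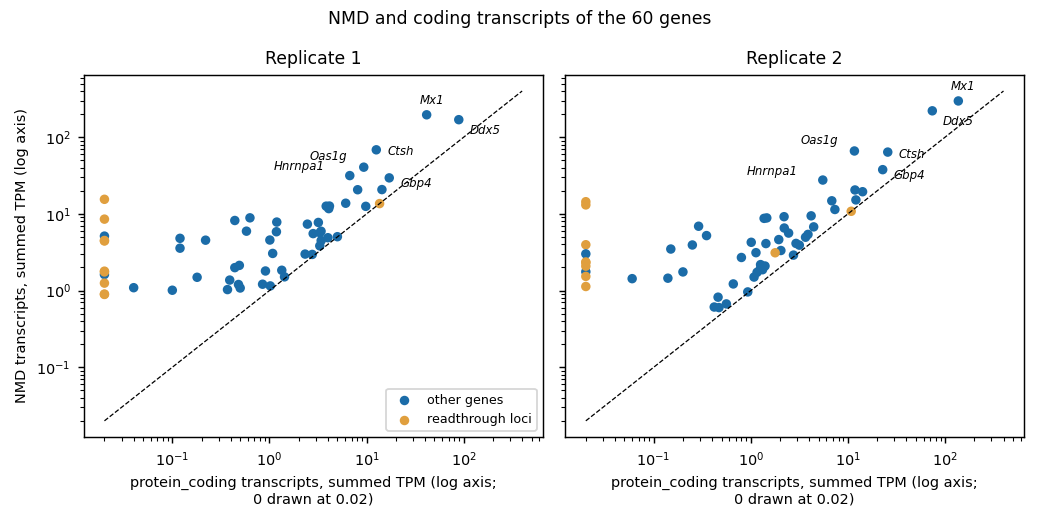
For each of the 60 members, the summed TPM of its NMD transcripts (y axis, log scale) is plotted against that of its protein_coding transcripts (x axis, log scale, values of 0 drawn at 0.02) in each library, with the line of equal levels dashed and readthrough loci in orange. Mx1 and Ddx5 lie highest, at 196 and 169 TPM of NMD transcripts in replicate 1, and the readthrough loci without coding transcripts line the left edge.

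Receptors and signalling proteins of immune cells made up 5 members. Il4ra, the alpha chain of the interleukin-4 receptor, had 12.5 and 19.4 TPM in its NMD transcript against 9.82 and 14.2 TPM coding, and here the index-based share (57.2% and 68.2%) was higher than the alignment-based one. Il4ra-205 has 114 bases that no coding transcript holds, and the first 20 bases of its extra exon are printed above in capitals. Sh2b3, an adaptor that dampens cytokine receptor signalling, had 5.53 and 5.62 TPM NMD against 2.82 and 2.45 TPM coding, but 46.0% and 48.1% in the index-based table. Nfam1, an ITAM-bearing membrane receptor, had 5.04 and 4.96 TPM NMD against 5.01 and 3.66 TPM coding, and 26.6% and 31.3% of its counts lay in NMD transcripts. Mill2, an MHC class I-like protein, and Tnfrsf8 were both below 6 TPM per gene and are the genes named above whose index-based share was low.

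Lysosomal, membrane and lipid proteins included Ctsh, the third most abundant member. Ctsh, the lysosomal protease cathepsin H, had 68.5 and 63.9 TPM in its NMD transcript against 12.6 and 25.7 TPM coding, a share of 65.1% and 54.4%. In the index-based table it stood at 50.2% and 36.9%. Cdipt, which makes phosphatidylinositol, had 13.8 and 11.4 TPM NMD against 6.10 and 7.34 TPM coding. Zdhhc3, a palmitoyltransferase, had the most annotated NMD transcripts of any member, 8 of its 11, and shares of 80.2% and 74.6%, with 63.0% and 70.0% in the index-based table. Tmf1 (a golgin), Mtmr12 (an inactive myotubularin phosphatase) and Chmp4c (of the ESCRT-III membrane-scission machinery) completed the group. Of these, Chmp4c had the highest share, 96.5% and 91.2%, at 1.13 and 1.59 TPM, through a transcript with 3899 bases absent from its coding transcript. All of these bases lie beyond the ends of the coding transcript.

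Of 7 ubiquitin, SUMO and cell-death genes, 5 stood at 50% or more in both libraries of both tables. Rnf114, a ubiquitin ligase, had 20.6 and 20.5 TPM in its NMD transcript, while its coding transcripts stood at 8.10 and 11.8 TPM. Its index-based share was 60.1% and 38.4%, so it was above the threshold there in 1 library. Senp2, a SUMO protease, had 12.6 and 9.19 TPM NMD against 3.84 and 2.20 TPM coding and stood at 74.5% and 74.1% in the index-based table. Bak1, a pore-forming protein of mitochondrial apoptosis, had 8.88 and 8.86 TPM NMD against 0.63 and 1.46 TPM coding. Fbxl4, a mitochondrial F-box protein, had shares of 95.4% and 95.9% and Cdc26, a subunit of the anaphase-promoting complex, 86.0% in both libraries. Rnf41, a ubiquitin ligase, stood close to the threshold at 53.7% and 51.3%, and Cul7, a cullin, went from 54.6% to 19.2% between libraries in the index-based table at under 2 TPM.

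Mitochondrial and cofactor genes had a median of 9.37 TPM per gene, above the 6.41 TPM of all members, whereas DNA repair genes (2.60) and genes of transfer RNA modification and ribosome assembly (3.19) lay below it. Ndufa3, an accessory subunit of respiratory complex I, had 12.7 and 9.43 TPM NMD against 4.15 and 4.18 TPM coding, from only 106 and 113 counts for the gene. Ppcdc, of coenzyme A synthesis, Tk2, the mitochondrial thymidine kinase, Pet100, an assembly factor of cytochrome oxidase, and Mmaa, of cobalamin metabolism, had shares between 50.8% and 70.8%. In Mmaa the unit made a difference: its NMD transcript of 1685 bases held 53.0% and 50.8% of TPM but 23.4% and 22.0% of counts, beside a coding transcript of 5650 bases. Aptx, which repairs abortive DNA ligation ends, had the widest such gap, with 57.9% and 58.6% of TPM against 20.8% and 22.9% of counts. Atrip, the partner of the ATR checkpoint kinase, had 5.13 and 5.21 TPM of NMD against 0.02 and 0.35 TPM coding, and 27.0% of the leading transcript lies in exons of Trex1 on the same strand. Primpol, a primase and polymerase, had 81.2% and 95.7%, Acd, of the telomere shelterin complex, 62.1% and 72.6%, and Xrcc3, of homologous recombination, the values given above. Gtpbp4 (ribosome assembly), Osgep and Trmt11 (transfer RNA modification) lay between 51.4% and 63.6% at no more than 7.17 TPM per gene. The secreted growth factor Pdgfc (66.4% and 59.9%) and the metalloproteinase Adamts6 (68.4% and 54.5%) lay at 3.49 TPM per gene or less. Ostf1, at 11.7 and 14.8 TPM NMD, was the most abundant member outside any group, and with it stood Pcnx, Zmym5, Ccdc167, Hspbap1, Uxs1, Styx, 4933427D14Rik and Bend4, all under 12 TPM per gene.

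Readthrough loci, whose transcripts join exons of neighbouring genes, made up 10 members (16.7%), against 6 of the other genes with NMD transcripts (0.241%). In these 10, between 57.3% and 100% of the bases of the leading NMD transcript (median 95.0%) also lie in exons of another gene. In 6 of them every annotated transcript is an NMD transcript, so that the share is 100% by construction, and Gm49396 has no coding transcript either. In Gm38394, which spans Zc3h11a and Zbed6, the NMD and the coding transcript have identical sequences, so that its share of 50% is fixed as well. Gm42715, over Srcap and Tmem265, had 15.5 and 14.4 TPM, beside 27.0 and 29.5 TPM for Srcap and 0 TPM for Tmem265 in both. Gm20605, over Lrch4 and Sap25, had 8.54 and 13.1 TPM. Evi2, over Evi2a and Evi2b, was at 100% in replicate 1 and 63.6% in replicate 2, with 89.1% and 19.8% in the index-based table, and its deposited interval for the NMD transcript in replicate 1 ran from 0.00700 to 4.07 TPM. The other readthrough loci, Gm20716, Gm28043, Gm49396, Gm28035, Gm45140 and Gm42688, lay at 4.50 TPM or less. Reads in exons that 2 genes share were divided by the authors' quantification, and these values are uncertain for that reason. In all, 26 of the 60 leading NMD transcripts share bases with an exon of another gene. Outside the readthrough loci, the largest overlaps with genes on the opposite strand alone were 32.6% of the bases in Pet100 (with Pcp2), 29.3% in Primpol (with Cenpu and Gm45607), 20.3% in Khnyn (with Sdr39u1), 17.6% in Bak1 (with Ggnbp1) and 15.4% in Zdhhc3 (with Tgm4), and how far such reads were counted for the member was not tested. Without the 10 loci, the median share of the remaining 50 was 66.3% and 59.6%, and 56.3% and 50.3% in the index-based table.

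Between libraries, 1 of the 60 members passed the test, a readthrough locus. Each gene-level count was compared by a two-sided exact binomial test against scaled library sizes with Benjamini-Hochberg adjustment. To pass, a gene needed both an adjusted p below 0.05 and a ratio of at least 2-fold. Of 22514 genes with a count, 1090 passed (4.84%, with 3.32% higher and 1.52% lower in replicate 2), and of the 8640 genes at the count minimum 170 passed (1.97%, with 1.53% higher and 0.44% lower). The members' 1 of 60 (1.67%) is near that background. The test sets 1 library against 1, so it compares these libraries and not conditions, has no replicate check and covers counting error only. In bulk RNA, fewer cells of a type and less RNA per cell cannot be told apart. Gm28035, which joins Phyhd1 and Lrrc8a at chr2:30240567-30282148, had 119 counts in replicate 1 and 320 in replicate 2, a log2 ratio of 1.35 (adjusted p = 6.42e-19, exact binomial test). The genes sharing its exons had log2 ratios of 0.46 (Phyhd1) and -0.09 (Lrrc8a). Zmym5 came next in size, with 881 and 481 counts (log2 ratio -0.94), followed by Tnfrsf8 with 171 and 337 (0.90) and Mx1 with 18947 and 35900 (0.85), all short of the 2-fold ratio. The 4 antiviral members all had more counts in replicate 2 in relative terms, with a median log2 ratio of 0.52, and none passed. That group was formed after its values were seen, so no shift between libraries is read from it. Of the other genes with NMD transcripts, 1084 had a log2 ratio above 0 and 1402 below. Over all members the log2 ratio was above 0 in 28 and below 0 in 32, with a median of -0.03, beside -0.04 over the genes at the count minimum.

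**Figure D4:**
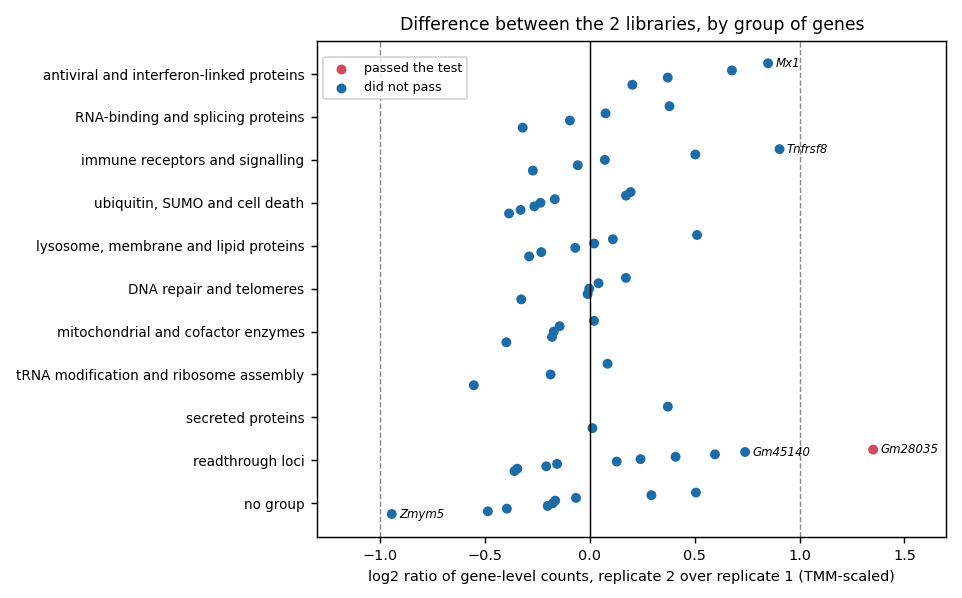
The log2 ratio of gene-level counts, replicate 2 over replicate 1 after library scaling, is plotted for each of the 60 members by group, with the 2-fold lines dashed and the gene that passed in red. Gm28035 is the 1 member past the line at 1.35, and the 4 antiviral genes lie right of 0.

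The genes of the pathway itself were present and did not pass the test. All 12 NMD core factors had counts, from 2.90 TPM (Smg8) to 41.5 (Smg1, the kinase of UPF1). Of these, 0 of 12 passed in either direction, as was so under each of the alternatives run. As 1.97% of the genes at the count minimum passed, 0 of 12 is near that background and is no result about the pathway. The same holds for the lists that follow. Among the core factors the largest log2 ratio was 0.63, for Dhx34, with 410 and 667 counts, short of the 2-fold ratio. Upf1, the helicase at the centre of the pathway, stood at 7.54 and 9.74 TPM, Upf2 at 6.00 and 4.92, Upf3a at 4.92 and 4.76 and Upf3b at 6.20 and 4.44. Smg5 and Smg6, which bind phosphorylated UPF1, stood at 11.6 ± 0.856 and 4.88 ± 0.318 TPM (SD, n = 2). Smg9 stood at 14.4 ± 1.02, Nbas at 7.42 ± 0.269 and Dhx34 at 5.07 ± 1.32 TPM. Of the 3 core factors with an annotated NMD transcript, Smg1 had a share of 10.5% and 4.71%, Smg5 10.6% and 3.74% and Smg6 8.02% and 0%, far from the threshold. Of 10 exon junction complex genes, led by Acin1 (64.2 ± 0.311 TPM), Rnps1 (16.2 ± 2.98) and Pnn (13.7 ± 0.177), 0 passed, and of 10 release factors and decay enzymes, led by Etf1 (26.6 ± 3.04), Pnrc2 (18.7 ± 4.52) and Xrn1 (15.7 ± 2.47), 0 passed. Among 13 textbook NMD targets 0 passed, and the most abundant were Gadd45b (182 ± 61.5 TPM), Cdkn1a (150.4 ± 5.57) and Atf3 (70.9 ± 19.8).

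Genes known for poison exons mostly had low NMD shares in these libraries, and Ddx5 and Hnrnpd were the members among them. Of 43 RNA-binding and ribosomal protein genes on that list, 33 had an annotated NMD transcript. Their median share was 6.47% and 5.81%, against 3.62% and 3.81% in the other genes with NMD transcripts. Members were 2 of the 33, beside 2.36% of all genes that could qualify. On this list 0 passed the test between libraries, beside 1.97% of the genes at the count minimum. Those nearest to Ddx5 (306 ± 26.4 TPM) in abundance were Rbm39 and Hnrnpa2b1. Rbm39, at 297 ± 8.87 TPM, had a share of 12.6% and 14.2% in the alignment-based table and 28.2% and 31.6% in the index-based one. Hnrnpa2b1, at 237 ± 15.7 TPM, had 0.782% and 3.57% in the first and 1.18% and 3.08% in the second. These shares are given as a description, since the share is what separates members from other genes.

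Annotated genes took 20612114 counts in replicate 1 and 22772087 in replicate 2, and NMD transcripts took 1.84% and 1.77% of estimated counts. In TPM they took 0.579% and 0.576%, and the 60 members held 14.4% and 17.2% of that. All 12 macrophage markers were present, with Lyz2 the highest at 1010 TPM and a summed 3452 and 3757 TPM, and Fcgr1 passed the test between libraries, higher in replicate 2. Markers of other cell types were near 0: T cell markers summed to 0.05 and 0.11 TPM, B cell to 0.30 and 0.26, neutrophil to 0.70 and 1.63, natural killer cell to 0.41 and 0.82, dendritic cell to 1.16 and 1.63 and fibroblast to 0.20 and 0.07. Endothelial markers summed to 6.02 and 14.3 TPM, nearly all from Kdr (9.12 ± 5.69), which also passed the test, while Tek, Cdh5 and Pecam1 lay at 0.69 TPM or less. Cd3e, Cd3g, Ly6g, Ncr1, Klrb1c and Prf1 were listed at 0. The part of these differences in the members' values was not tested.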

How the data were processed

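Total RNA-seq of 2 libraries of 1 group was analysed from tables the authors deposited. Per the file headers, they use mm10 and GENCODE M21. The authors' gene-level and alignment-based transcript tables hold deposited expected (estimated) counts, which need not be whole, and TPM. The index-based transcript table holds estimated counts and TPM as the authors deposited them. The bounds of the deposited TPM intervals were used as a score, since their level of coverage is not stated and a TPM can lie outside its own bounds, as for Ddx5-208. For aligner, quantification tools and strand setting, names and versions were not given in the sources used here. Overlapping, antisense and near-identical genes are therefore uncertain. Transcript types and gene identifiers came from the index-based table, which lacked them for 86 annotated genes, 4 of them at 100 or more counts in both libraries. The 26345 rows of no annotated gene (0.144% and 0.0810% of counts) were left out. SDs and p-values measure only the spread or counting error of these libraries, which may be technical.

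Gene-level counts were rounded to whole numbers and scaled by TMM (edgeR 4.0.16, R 4.3.3). Since each side of the comparison is 1 library, a model would leave no residual degrees of freedom. Each gene was therefore compared by an exact binomial test, two-sided, with the scaled library shares as its null, Benjamini-Hochberg adjusted over all genes with a count, and log2 ratios used 0.5 added to each count. The test was checked on simulated data. Python 3.11.15, pandas 2.3.3 and scipy 1.17.1 were used for the rest. Transcript structure and sequence were read from the GENCODE M21 annotation and transcripts. The leading transcript of a type is the one with the highest mean TPM, and the complete coding transcript is the one with annotated start and stop.

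The members and all gene lists were chosen with earlier results of these data known. Named members were the 15 of highest TPM, the 5 highest and 5 lowest in index-based share (8 tied for the highest), those past the test, the 5 nearest to the threshold on each side, those on the lists, the 5 with the most NMD transcripts and the 5 with the widest gap between TPM and count share. Non-members named were the NMD core factors (1 is not reported here), the 3 most abundant genes of each other list and those past the test. All other members, the role groups, the genes joined by readthrough loci and the 9 sequence pairs were chosen after their values were seen. Alternatives covered the denominator, the table, the unit, the count minimum, the threshold, the scaling, the test (edgeR exact test with a preset dispersion of 0.04, DESeq2 1.42.0 size factors) and leaving out a library.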

Additional observations from a re-analysis of the deposited data

How the results depend on the processing

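The number of members moved with the denominator: with coding and NMD transcripts alone, leaving retained introns and other types out, 155 genes qualified, the 60 among them. A count minimum of 10 gave 110 genes, one of 1000 gave 20, and a threshold of 75% gave 17, whose median share was 95.6% in place of 65.7%. Requiring the rule in 1 library only (leaving out a replicate) gave 80 to 114 genes with a median share of 59.95% to 62.0%. Estimated counts in place of TPM gave 71 genes, 46 of them members. The index-based table gave 53, of which 31 were members, 8 of them readthrough loci.

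The 1 member past the test between libraries (Gm28035) became 2 with library totals in place of TMM (adding Zmym5), 3 with index-based estimated counts (adding Mx1 and Zmym5), 0 with the edgeR exact test at a dispersion of 0.04 and 0 at a count minimum of 1000. Over all genes, 1090 passed, 2304 with index-based counts (994 higher and 1310 lower in replicate 2, against 747 and 343) and 166 with the exact test. The cause was not tested. DESeq2 size factors and a minimum of 10 counts over both libraries left 1 member past the test, Gm28035 in both. The test between libraries has no form without a replicate. No paired analysis was possible because the series has 1 group. Members with counts near 100, such as Ndufa3 (106 and 113), have shares that rest on few reads.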

Other observations

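Beyond the members, 61 genes at the count minimum reached an NMD share of 50% in 1 library only, and 1542 of the 2486 other genes with NMD transcripts (62.0%) stayed under 10% in both. Among the genes known for poison exons, Rpl12, which encodes a ribosomal protein of the large subunit and was picked out after its values were seen, had 64.4% in replicate 1 and 46.0% in replicate 2 from 323 and 434 counts, but 20.8% and 18.1% in the index-based table. Tardbp, Tra2a and Tial1, also picked out afterwards, had shares of 32.7% and 37.0%, 33.1% and 28.9%, and 37.9% and 32.1%, beside index-based shares of 27.8% and 29.5%, 54.0% and 46.8%, and 39.9% and 24.8%.

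The stop codon of the leading NMD transcript was TGA in 28 members (46.7%), TAA in 18 (30%) and TAG in 14 (23.3%), beside 56.9%, 23.4% and 19.6% in the other genes. Retained-intron transcripts held a median of 0% of TPM in members and 18.8% in the other genes. The rule itself leaves a member at most 50% for them, so the lower value is partly built in.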
